A study of Mus musculus with 16 samples.

Results

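A set of 31 genes of macrophages and of major histocompatibility complex (MHC) class II antigen presentation was followed in whole gonads of mice raised with and without microbes. They are the rows of the deposited count table whose gene symbols stand in a fixed list of names, and 31 of the table's 38087 genes match. By role they are 16 macrophage markers, 12 genes of class II presentation and 3 further genes of myeloid cells. The names stand for roles and not for a threshold on the values, but the list was drawn up with earlier results of these data known. The 16 libraries of total RNA are from 3 testes of germ-free (GF) males, 4 testes of conventionally raised (CV) males, 5 ovaries of GF females and 4 ovaries of CV females. All mice were C57BL/6j, aged 15 to 16 weeks, fed ad libitum, and collection was at zeitgeber time 2 to 4, counted in hours from lights on. GF mice are raised without any microbes and CV mice carry a normal microbiota, so the study asks what the absence of microbes changes in each gonad. Tissue and sex are one factor here, and the labels name no treatment, transgene, batch or ovarian cycle stage. Whether each library stands for its own animal is not stated either, and the spread behind the p-values may then be partly technical.

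Macrophages are abundant leukocytes of the gonads. In the testis they lie beside the Leydig cells and around the tubules, and in the ovary they take part in ovulation, follicle atresia and the growth and breakdown of the corpus luteum. MHC class II molecules are pairs of an alpha and a beta chain on antigen-presenting cells that hold peptides for CD4+ T cells; the invariant chain guards the groove until it is cut away, H2-DM then loads the peptide, and H2-DO holds H2-DM back. Their genes are switched on together by CIITA, a coactivator that acts on proteins bound to the X and Y boxes of their promoters.

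Because the class II genes share this control, the stretch around the Y box is shown for the 7 class II promoters in which the letters TGATTGG were found. The sequences are RefSeq's, build GRCm38.p6, 60 bases each, 5′ to 3′ on the strand of the gene; capitals mark TGATTGG, AACNNATGA (an X box form) and TGACGTCA (a cyclic AMP response element form). No marked motif overlaps another.
H2-Aa: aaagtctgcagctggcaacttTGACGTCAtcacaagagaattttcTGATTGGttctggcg
H2-Eb1: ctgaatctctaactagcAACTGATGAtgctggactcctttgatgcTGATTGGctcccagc
H2-Eb2: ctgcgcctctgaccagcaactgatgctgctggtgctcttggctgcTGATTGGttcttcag
H2-DMb1: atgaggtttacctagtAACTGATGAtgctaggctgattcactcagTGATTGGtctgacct
H2-DMb2: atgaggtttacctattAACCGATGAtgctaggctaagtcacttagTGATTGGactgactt
H2-Oa: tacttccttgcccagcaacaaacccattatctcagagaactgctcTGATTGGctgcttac
H2-Ob: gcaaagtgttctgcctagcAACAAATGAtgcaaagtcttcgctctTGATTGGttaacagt
These windows all lie on chromosome 17: H2-Aa at chr17:34287859-34287918 on the minus strand and, on the plus strand, H2-Eb1 at chr17:34305761-34305820, H2-Eb2 at chr17:34325528-34325587, H2-DMb1 at chr17:34153083-34153142, H2-DMb2 at chr17:34145112-34145171, H2-Oa at chr17:34092289-34092348 and H2-Ob at chr17:34238801-34238860. TGATTGG begins 50 bases before the RefSeq start of H2-Aa, 61 before that of H2-Eb1 and 45 before that of H2-Oa. It begins 59 bases before the start of H2-Ob, 63 before that of H2-DMb1, 92 before that of H2-DMb2 and 102 before that of H2-Eb2.

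Promoter windows of 300 bases (250 before the start and 50 after it) were matched for 22 of the 31 genes, 9 of them class II genes. On either strand TGATTGG was in windows of 8 of the 22, the 7 class II genes above and Cd68, and in 7.82% of all 32851 windows. AACNNATGA was in windows of 5 of the 22, which are the 4 class II genes with capitals there and Cd163, and in 2.85% of all windows. TGACGTCA was in that of H2-Aa and in 1.79% of all windows. A match describes the letters only. The other 9 genes are Csf1r, Cd14, C1qa, Lyve1, Clec10a, H2-Ab1, Cd74, Ciita and Tyrobp.

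Total counts ran from 25880591 to 28266867 in the 7 testis libraries and from 12912251 to 15907297 in the 9 ovary libraries, so a gene at a given share of the RNA was counted more precisely in the testis. The tissue labels matched their markers: 7 genes of male germ cells summed to 9827 to 10698 CPM (gene counts scaled to the size of the library) in testes and to 19.0 to 30.8 CPM in ovaries, and 7 oocyte genes to 13.8 to 16.5 CPM in testes and to 154 to 268 CPM in ovaries. Levels are CPM with library sizes scaled by the trimmed mean of M values (TMM) within a tissue, unless said otherwise. A gene is called changed at an adjusted p under 0.05 in edgeR's quasi-likelihood F test. These are whole tissues, in which fewer cells of a type and less RNA per cell cannot be told apart.

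Ranked per kilobase of exon, which allows genes to be compared, the order of levels differed between the gonads. On this scale, with one scaling over all 16 libraries, Lyz2, the lysozyme of macrophages and granulocytes, averaged 97.2 CPM per kb in GF ovaries and 112 in CV ovaries, and Cd74, the invariant chain, 92.2 CPM per kb in GF ovaries and 90.8 in CV ovaries. Ctss, the protease that trims the invariant chain, followed at 35.0 CPM per kb in GF ovaries and 38.8 in CV ovaries, and the complement genes C1qa and C1qb lay close to it at 32.2 to 35.2 CPM per kb in either group. The classical class II chains H2-Eb1, H2-Aa and H2-Ab1 stood at 29.8, 24.2 and 21.3 CPM per kb in GF ovaries and at 29.6, 23.1 and 20.9 in CV ovaries. In the testis Aif1 was at 276 CPM per kb in GF and 286 in CV libraries, Cx3cr1 at 25.5 and 25.3 in those groups, and Cd74 at only 5.20 and 8.17.

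The ovaries of GF and CV mice did not differ detectably in any of the 31 genes. Of these, 30 passed the filter on low counts (H2-Eb2, a little-used beta chain, had 7 counts over the 5 GF libraries and 15 over the 4 CV libraries) and none was called by edgeR, against 0.177% of the 18095 genes tested. None reached an unadjusted p under 0.05, against 6.48% of all genes, and DESeq2 called none either. In none did the groups fail to overlap, against 2.72% of all genes. Log2 fold changes, GF over CV, ran from -0.52 for Itgam to 0.27 for H2-Oa. The smallest adjusted p, 0.837 by edgeR, was that of Ctsc, the protease cathepsin C, at a log2 fold change of 0.20 (SE 0.13).

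Among the macrophage markers Csf1r, the receptor for the growth factors CSF1 and IL-34, stood at 57.4, 58.0, 79.6, 45.7 and 62.2 CPM in GF ovaries 1 to 5, against 54.3, 71.1, 55.0 and 52.0 CPM in CV ovaries 1 to 4. GF ovary 3 was highest and GF ovary 4 lowest, and the other libraries overlapped. Lyz2 stood at 183, 161, 224, 93.7 and 154 CPM in GF ovaries, against 169, 206, 205 and 176 CPM in CV ovaries, again with GF ovaries 3 and 4 at the ends. The log2 fold changes were 0.06 (SE 0.15, adjusted p = 0.963 by edgeR) for Csf1r and -0.21 (SE 0.21, adjusted p = 0.901) for Lyz2.

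C1qa, C1qb and C1qc, which encode the chains of the complement starter C1q and sit side by side on chromosome 4, moved together from library to library. C1qb was at 37.7, 45.5, 65.4, 31.8 and 43.1 CPM in GF ovaries, against 40.8, 58.1, 47.7 and 46.4 CPM in CV ovaries. The highest value was again in GF ovary 3, the next in CV ovary 2 and the lowest in GF ovary 4. The log2 fold changes of the 3 genes were -0.06, -0.11 and -0.08, with 95% confidence intervals that together ran from -0.54 to 0.38.

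Some markers spread more widely, among them Cd163 and Folr2, while Mrc1 and Lyve1 ranged only 2.10-fold and 2.81-fold over all ovaries. Itgam, given below, ranged 5.42-fold. Cd163, the haemoglobin scavenger receptor, had 4.20, 4.28, 9.93, 2.07 and 11.1 CPM in GF ovaries, against 4.89, 10.2, 6.12 and 2.52 CPM in CV ovaries, a 5.37-fold range with the groups overlapping throughout. Folr2, a folate receptor of resident macrophages, had 1.44, 2.48, 4.75, 1.33 and 5.80 CPM in GF ovaries, against 3.23, 5.01, 4.67 and 4.10 CPM in CV ovaries. GF ovaries 1, 2 and 4 lay below every CV ovary for Folr2 and GF ovary 5 lay above them all. Its log2 fold change was -0.42 (95% confidence interval -1.37 to 0.52), and that of Cd163 was 0.09 (-1.11 to 1.29). With the replicate number as a block, which sets ovaries of the same number against each other, Folr2 was at -0.88 (adjusted p = 0.296 by edgeR), Cd163 at -0.25 (0.852) and Cd14 at -0.46 (0.440, against -0.25 without the block), none called. Cd14 was lower in the GF ovary at each of the 4 shared numbers, though not always by much, and the labels state no such pairing. GF ovary 5, which has no partner, had 195 Cd14 counts, against 102 to 199 in the CV ovaries.

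Itgam, the integrin alpha chain CD11b of myeloid cells, had 11.8, 12.3, 19.6, 7.01 and 20.4 CPM in GF ovaries, against 10.03, 38.0, 18.1 and 15.7 CPM in CV ovaries. CV ovary 2 stood far above the rest. Its log2 fold change of -0.52 (SE 0.42) had an adjusted p of 0.88 by edgeR. Without CV ovary 2 it was -0.035, and with any 1 library left out it ran down to -0.75. The other macrophage markers, among them Cd68 (a lysosomal membrane protein), Mrc1 (the mannose receptor), Cd14 (the lipopolysaccharide coreceptor), Lyve1 (a hyaluronan receptor shared with lymphatic vessels), Clec10a (a lectin) and Aif1 (the actin-binding protein Iba1), had log2 fold changes between -0.30 and 0.00, with adjusted p of 0.873 or more by edgeR. Over the 16 markers 13 changes were negative, with a median of -0.11, against 48.3% negative and a median of 0.01 over all genes tested.

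No class II gene differed detectably between GF and CV ovaries. Cd74 was at 187, 227, 240, 139 and 194 CPM in GF ovaries, against 205, 226, 187 and 161 CPM in CV ovaries, with GF ovaries 3 and 4 at the ends. H2-Aa, the alpha chain of I-A, was at 118, 130, 141, 83.4 and 114 CPM in GF ovaries, against 118, 120, 112 and 99.5 CPM in CV ovaries, with GF ovaries 2 and 3 above every CV ovary, GF ovary 4 below them all and the other two among them. The log2 fold changes were 0.02 (SE 0.16, 95% confidence interval -0.33 to 0.37) for Cd74 and 0.07 (SE 0.13, -0.23 to 0.36) for H2-Aa.

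H2-Ab1 and H2-Eb1, the beta chains of I-A and I-E, had log2 fold changes of 0.03 and 0.01. Ciita, their coactivator, was at 6.08, 8.93, 10.1, 4.80 and 6.83 CPM in GF ovaries, against 7.20, 8.47, 6.20 and 6.25 CPM in CV ovaries, in the same order of libraries as the chains at both ends. H2-DMa, H2-DMb1 and H2-DMb2, the peptide loaders, had log2 fold changes of -0.01, 0.08 and -0.23. Ctss had one of -0.15. Over the 11 class II genes tested 8 changes were positive, against 51.7% of all genes, and the median was 0.03. Of the 3 further myeloid genes, Laptm5 and Tyrobp, the signalling adaptor DAP12, had log2 fold changes of -0.18 (SE 0.23) and -0.20 (SE 0.17), beside that of Ctsc given above.

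Of the chains of H2-DO, H2-Ob went the other way at both ends of the order of libraries, and H2-Oa only at the top. H2-Ob, the beta chain, was at 6.64, 5.48, 4.82, 7.38 and 7.35 CPM in GF ovaries, against 6.01, 5.35, 6.35 and 5.75 CPM in CV ovaries. It was highest in GF ovary 4 and lowest in GF ovary 3, the reverse of Cd74 and H2-Aa. H2-Oa, the alpha chain, was highest in GF ovary 4 as well, at 1.18 CPM, and was lowest in CV ovary 3, at 0.31 CPM, on 4 to 18 counts a library. H2-DO is known mainly from B cells, thymic epithelium and some dendritic cells. The sum of B and plasma cell genes was lowest in GF ovary 4, at 90.7 CPM, and which cells carry H2-Ob was not tested.

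**Figure D1:**
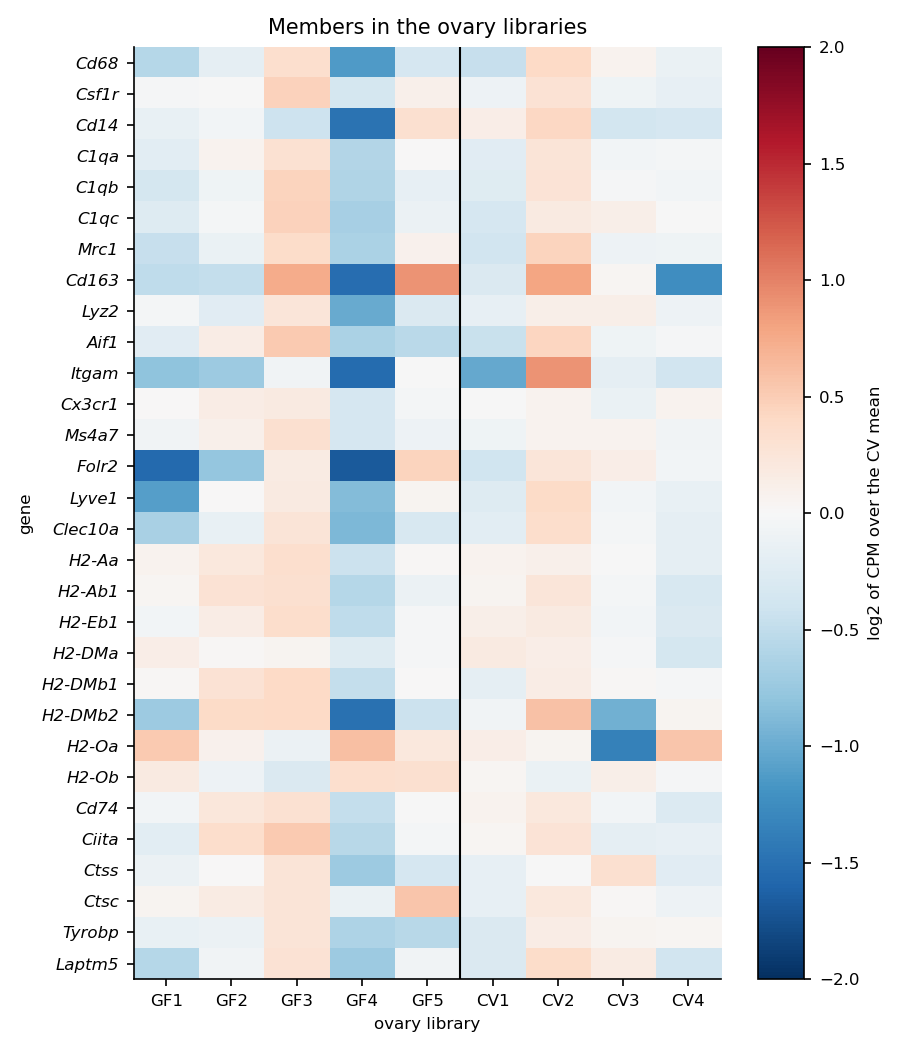
Level of the 30 genes tested in the ovary, as log2 of each library's CPM over the mean of the CV ovaries, with the 5 GF libraries left of the line and the 4 CV libraries right of it. GF4 is low and GF3 high in most rows, CV2 is high in the macrophage markers, and H2-Oa and H2-Ob are high in GF4.

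Single ovaries differed more than the groups did. GF ovary 4 was the lowest of the 9 libraries in 25 of the 31 genes and lay below every CV ovary in 26 of the 30 tested, among them all 16 macrophage markers. GF ovary 3 was the highest in 15 of the 31, and CV ovary 2 in 8. How often these libraries were lowest or highest over all genes tested was not counted, so the counts describe these genes only. The number of negative changes followed these libraries: it was 18 of 30 with all libraries, 13 without GF ovary 4, 27 without GF ovary 3 and 12 without CV ovary 2, with no gene called in any of these fits.

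Summed over 13 macrophage markers (all but Aif1, Cx3cr1 and Mrc1, left out after their values were seen because they make up most of the testis sum) the level was 425, 449, 610, 281 and 457 CPM in GF ovaries, against 422, 591, 503 and 455 CPM in CV ovaries. The class II sum was 541, 626, 678, 388 and 530 CPM in GF ovaries, against 565, 612, 551 and 463 CPM in CV ovaries. Both sums overlapped between the groups, and both were lowest in GF ovary 4 and highest in GF ovary 3.

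Markers of some other cells moved with these libraries, and those of others did not. A list of 10 genes of all leukocytes summed to 108, 125, 142, 66.8 and 100 CPM in GF ovaries, against 111, 150, 126 and 117 CPM in CV ovaries, with GF ovary 4 lowest there too. A list of 6 adipocyte genes, among them Adipoq and Fabp4, summed to 51.5, 333, 1480, 34.1 and 1020 CPM in GF ovaries, against 476, 1712, 657 and 126 CPM in CV ovaries. The adipocyte sum was highest in CV ovary 2 and GF ovary 3 and lowest in GF ovary 4. Sums of B and plasma cell genes and of T and NK cell genes were also lowest in GF ovary 4. By contrast, the monocyte sum was lowest in GF ovary 3, at 624 CPM, and the granulosa cell sum was highest in GF ovary 4, at 2715 CPM. The part of fat or of other leukocytes in the macrophage values was not tested.

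**Figure D2:**
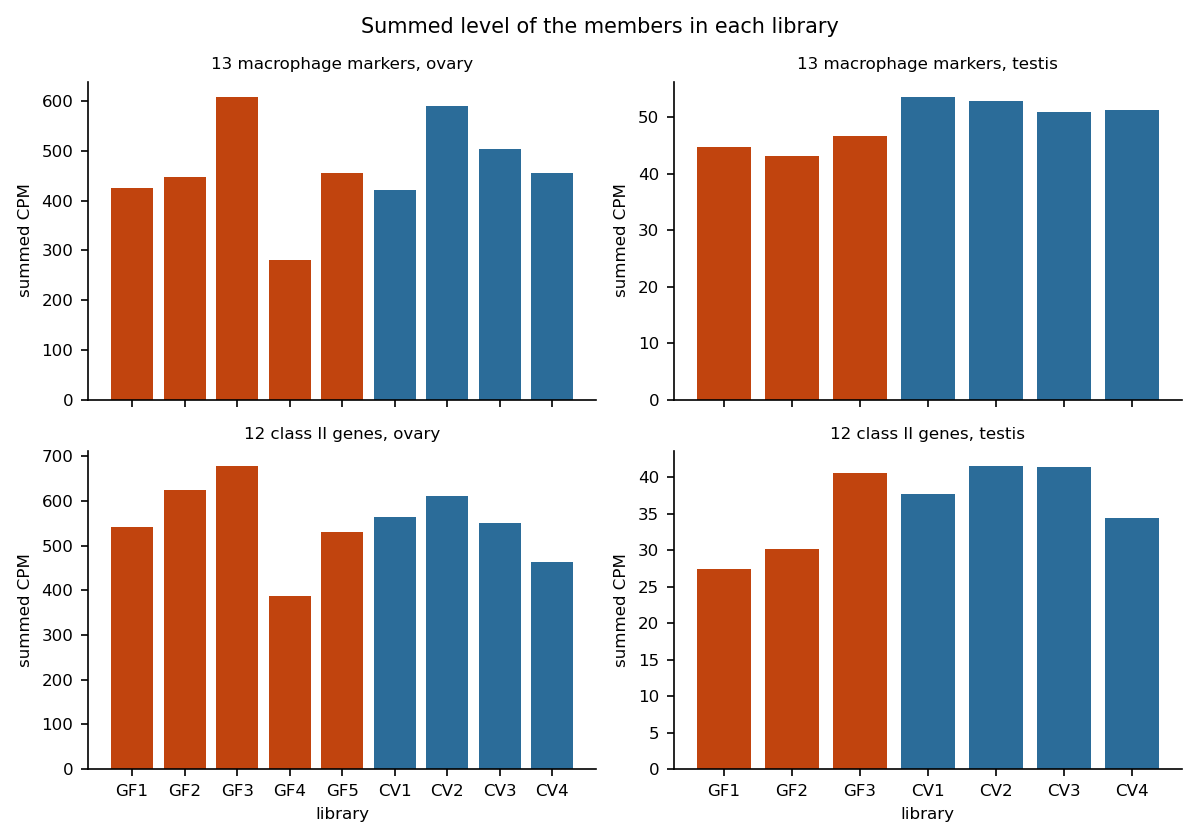
Summed CPM of 13 macrophage markers (top) and 12 class II genes (bottom) in each ovary (left) and testis (right) library, GF libraries in orange and CV libraries in blue. In the ovary the bars of both groups overlap, from 281 CPM in GF4 to 610 CPM in GF3 for the markers. In the testis the 3 GF bars for the markers, at 43.1 to 46.6 CPM, are below the 4 CV bars, at 50.9 to 53.6 CPM. The 13 markers leave out Aif1, Cx3cr1 and Mrc1, a choice made after the values were seen. With those genes added the testis sums overlap.

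In the testis 2 of the 25 genes that passed the filter on low counts fell in GF libraries by edgeR's test, and 1 of them is among the 15 macrophage markers tested. These were Laptm5, a lysosomal membrane protein of blood cells, and Lyz2. A count of 2 of 25 equals the share over all genes tested, 8.08% of 20269 (4.41% lower). There, 6 genes had an unadjusted p under 0.05, all lower, against 19.4% of all genes (9.71% lower), and 22 of the 25 changes were negative, against 48.8%. The median was -0.22, against 0.00 over all genes.

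Laptm5 was at 1.74, 1.93 and 1.80 CPM in GF testes 1 to 3, against 2.11, 3.02, 3.34 and 2.62 CPM in CV testes 1 to 4. Every GF library lay below every CV library, on 45 to 53 counts a GF library and 55 to 90 a CV library. Its log2 fold change was -0.60 (SE 0.18, adjusted p = 0.0247 by edgeR). The call was lost without CV testis 2 or 3 or without any 1 of the GF testes, at adjusted p of 0.062, 0.113 and 0.0611 to 0.0838 by edgeR, and with DESeq2, at 0.0769.

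Lyz2 was at 13.1, 12.2 and 12.4 CPM in GF testes, against 14.6, 14.1, 14.7 and 15.0 CPM in CV testes. The groups did not overlap and each varied little, with means of 12.6 ± 0.50 CPM in GF and 14.6 ± 0.37 CPM in CV testes (SD, n = 3 and 4). Its log2 fold change was -0.22 (SE 0.07, adjusted p = 0.0493 by edgeR). The call was lost without any 1 of the 7 libraries, at adjusted p of 0.0511 to 0.184, with DESeq2, at 0.131, and without the filter on low counts, at 0.0627.

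Another 4 macrophage markers were lower at an unadjusted p under 0.05 without being called. Cd163 was at 1.04, 1.02 and 1.05 CPM in GF testes, against 1.85, 0.99, 1.82 and 1.63 CPM in CV testes. CV testis 2 lay at the GF level, and without it Cd163 was called at a log2 fold change of -0.77 (adjusted p = 0.0294 by edgeR), against -0.60 (SE 0.23, adjusted p = 0.12) with all libraries. With each library left out in turn Cd163 ran from -0.77 to -0.52, with adjusted p up to 0.270. Clec10a was at 0.735, 0.729 and 0.825 CPM in GF testes, against 1.15, 1.07, 1.30 and 1.06 CPM in CV testes, with no overlap and a log2 fold change of -0.58 (SE 0.25, adjusted p = 0.177).

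Cd68 was at 1.31, 1.42 and 1.76 CPM in GF testes, against 2.04, 2.83, 2.00 and 1.52 CPM in CV testes. CV testis 4 fell among the GF values, and without it Cd68 was called at -0.61 (adjusted p = 0.0476 by edgeR), against -0.48 (SE 0.20, adjusted p = 0.172) with all libraries. With each library left out in turn Cd68 ran from -0.61 to -0.31, with adjusted p up to 0.499. C1qa was at 4.41, 4.34 and 4.65 CPM in GF testes, against 5.34, 5.46, 5.97 and 4.64 CPM in CV testes, with GF testis 3 just above CV testis 4, at a log2 fold change of -0.26 (SE 0.12, adjusted p = 0.198). C1qb and C1qc had log2 fold changes of -0.15 and -0.17, Csf1r -0.12, Ms4a7 -0.30, Itgam -0.17, Tyrobp -0.06 and Ctsc 0.02, none with an unadjusted p under 0.05.

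The groups also did not overlap for Folr2, at 0.77, 0.91 and 0.75 CPM in GF testes against 1.04, 1.18, 1.002 and 1.35 CPM in CV testes, or for Cd14, at 0.696, 0.546 and 0.600 CPM in GF testes against 0.807, 0.879, 0.705 and 0.957 CPM in CV testes. With Laptm5, Lyz2 and Clec10a these made 5 of 25 genes without overlap, against 17.1% of all genes tested. Neither was called, at adjusted p of 0.284 for Folr2 and 0.431 for Cd14 by edgeR.

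The markers that the testis holds at high level differed least between the groups. Aif1 was at 311, 315 and 309 CPM in GF testes, against 316, 329, 336 and 295 CPM in CV testes, a log2 fold change of -0.03 with a 95% confidence interval of -0.10 to 0.04. Cx3cr1, the receptor for the chemokine fractalkine, had one of 0.03 (-0.04 to 0.10), and Mrc1 one of -0.02 (-0.11 to 0.07). The intervals leave room for changes of no more than 0.11 on the log2 scale in these 3 genes.

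The sum of the 13 macrophage markers, a selection made after the values were seen, did not overlap between the groups. It was 44.7, 43.1 and 46.6 CPM in GF testes, against 53.6, 52.9, 50.9 and 51.2 CPM in CV testes. With Aif1, Cx3cr1 and Mrc1 added the sum was 492 to 495 CPM in GF testes and 483 to 522 CPM in CV testes, which overlapped. The lack of overlap therefore depends on leaving these genes out, which differed little between the groups. A list of 25 further macrophage genes summed to 135 to 145 CPM in GF testes and 138 to 152 CPM in CV testes, which overlapped too. Adgre1, the macrophage antigen F4/80, is outside the list and had a log2 fold change of -0.02 (SE 0.12, adjusted p = 0.941 by edgeR). The sum of 10 genes of all leukocytes was 20.2 to 26.4 CPM in GF testes and 21.3 to 25.3 CPM in CV testes, which overlapped as well.

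**Figure D3:**
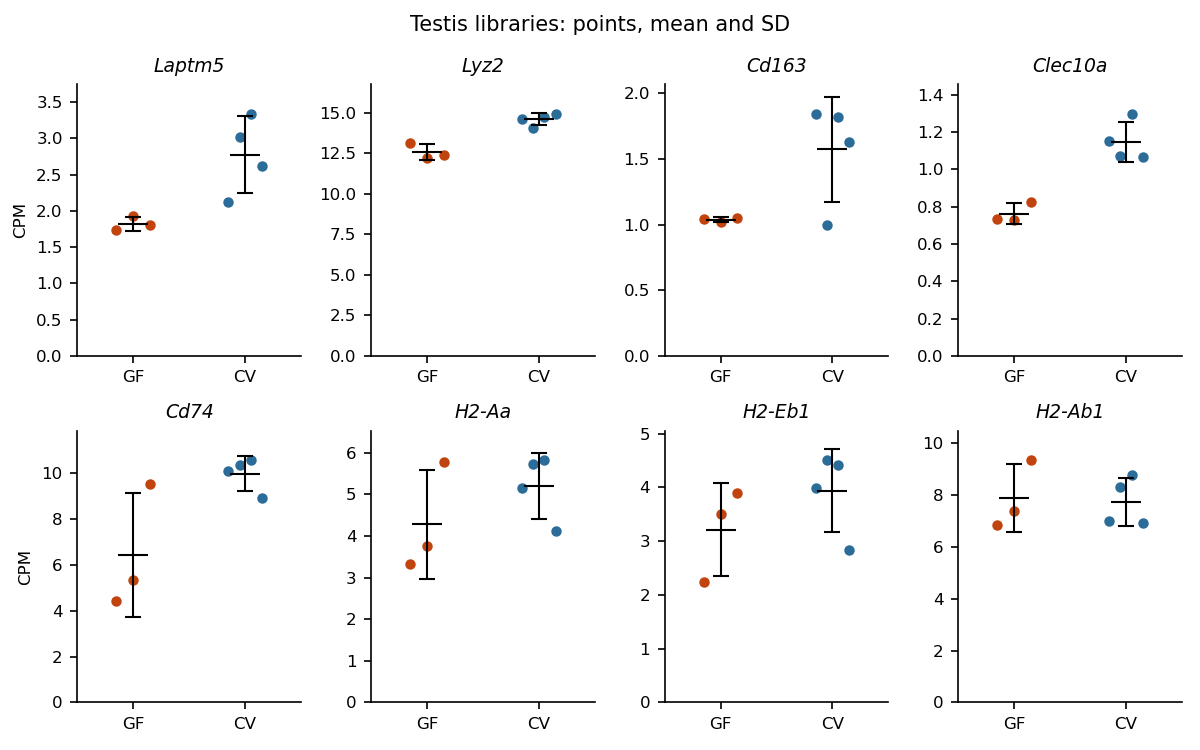
CPM of 8 genes in each testis library, 3 GF libraries left (orange) and 4 CV libraries right (blue) in every panel, with the mean and SD in black and axes from 0. GF points lie below all CV points for Laptm5, Lyz2 and Clec10a; for Cd74 the GF points lie at 4.41, 5.36 and 9.53 CPM.

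Of the class II genes 7 passed the filter in the testis and none was called, against 8.08% of all genes tested. Cd74 was at 4.41, 5.36 and 9.53 CPM in GF testes, against 10.1, 10.4, 10.6 and 8.90 CPM in CV testes. GF testes 1 and 2 lay below every CV testis, by a wide gap, and GF testis 3 lay among them. The log2 fold change was -0.63 with a 95% confidence interval of -1.31 to 0.05 (SE 0.27, adjusted p = 0.292 by edgeR).

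H2-Aa was at 3.33, 3.75 and 5.78 CPM in GF testes, against 5.15, 5.73, 5.83 and 4.11 CPM in CV testes, and H2-Eb1 at 2.24, 3.50 and 3.90 CPM in GF testes, against 4.00, 4.51, 4.42 and 2.84 CPM in CV testes. GF testis 3 was again at the CV level. Without GF testis 3, Cd74 and H2-Aa were called lower, at log2 fold changes of -1.03 (adjusted p = 1.05e-07 by edgeR) and -0.56 (adjusted p = 0.022), while Laptm5 and Lyz2 no longer were. These calls rest on leaving out the library that differed. With each library left out in turn Cd74 ran from -1.03 to -0.43 (adjusted p up to 0.542 by edgeR) and H2-Aa from -0.56 to -0.13 (up to 0.758). Neither was called with any other library left out. With all libraries the log2 fold changes were -0.28 (SE 0.17, adjusted p = 0.412) for H2-Aa and -0.29 (SE 0.18, adjusted p = 0.408) for H2-Eb1.

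H2-Ab1, the partner chain of H2-Aa, was at 6.84, 7.40 and 9.34 CPM in GF testes, against 7.00, 8.29, 8.76 and 6.91 CPM in CV testes, a log2 fold change of 0.02 (SE 0.11). GF testis 1 was below every CV testis and GF testis 3 above them all, and without GF testis 3 the change was -0.12, not called. H2-DMa, H2-DMb1 and Ctss had log2 fold changes of -0.04, -0.25 and -0.15. Over the 7 class II genes GF testis 1 lay below every CV testis in 5, GF testis 2 in 4 and GF testis 3 in 0. The shares over all genes tested were not counted for single libraries.

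Another 6 genes were too low in the testis to be tested. Ciita had 11 counts over the 3 GF testes and 23 over the 4 CV testes, H2-Ob 5 counts in GF and 12 in CV testes, and H2-Oa 3 counts in GF and 4 in CV testes. Lyve1 had 32 counts in GF and 32 in CV testes, H2-DMb2 22 in GF and 23 in CV testes, and H2-Eb2 5 in GF and 7 in CV testes. At this depth no difference in them was detectable.

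Markers of other testis cells were read beside these values. A list of 9 endothelial genes summed to 53.6, 51.4 and 56.9 CPM in GF testes, against 48.2, 48.9, 49.8 and 49.9 CPM in CV testes, higher in GF without overlap. Flt4 and Egfl7, 2 of the 9, were called higher, against 3.67% of all genes tested in the testis. Of the 9 changes 5 were positive and 4 negative. At an unadjusted p under 0.05 by edgeR 3 were higher and 2 lower, so the genes of this list did not all move together. A list of 7 male germ cell genes summed to 9827 to 10465 CPM in GF testes and to 10136 to 10698 CPM in CV testes, overlapping, and 2 of them, Acr and Spata18, were called lower, at log2 fold changes of -0.12 and -0.11, against 4.41% of all genes. The dendritic cell markers Clec9a and Cd209a had at most 0.111 and 0.116 CPM in any testis, and the B cell gene Cd79a at most 0.075 CPM. Other genes of those lists were well counted there, such as Zbtb46 (310 to 406 counts a library), Flt3 (145 to 200) and Pax5 (194 to 267). Of 5 dendritic and 6 B and plasma cell genes tested in the testis none was called. At an unadjusted p under 0.05 by edgeR 2 and 3 of them were higher in GF testes, against 9.72% of all genes. The part of these cells in the values of the macrophage and class II genes was not tested.

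**Figure D4:**
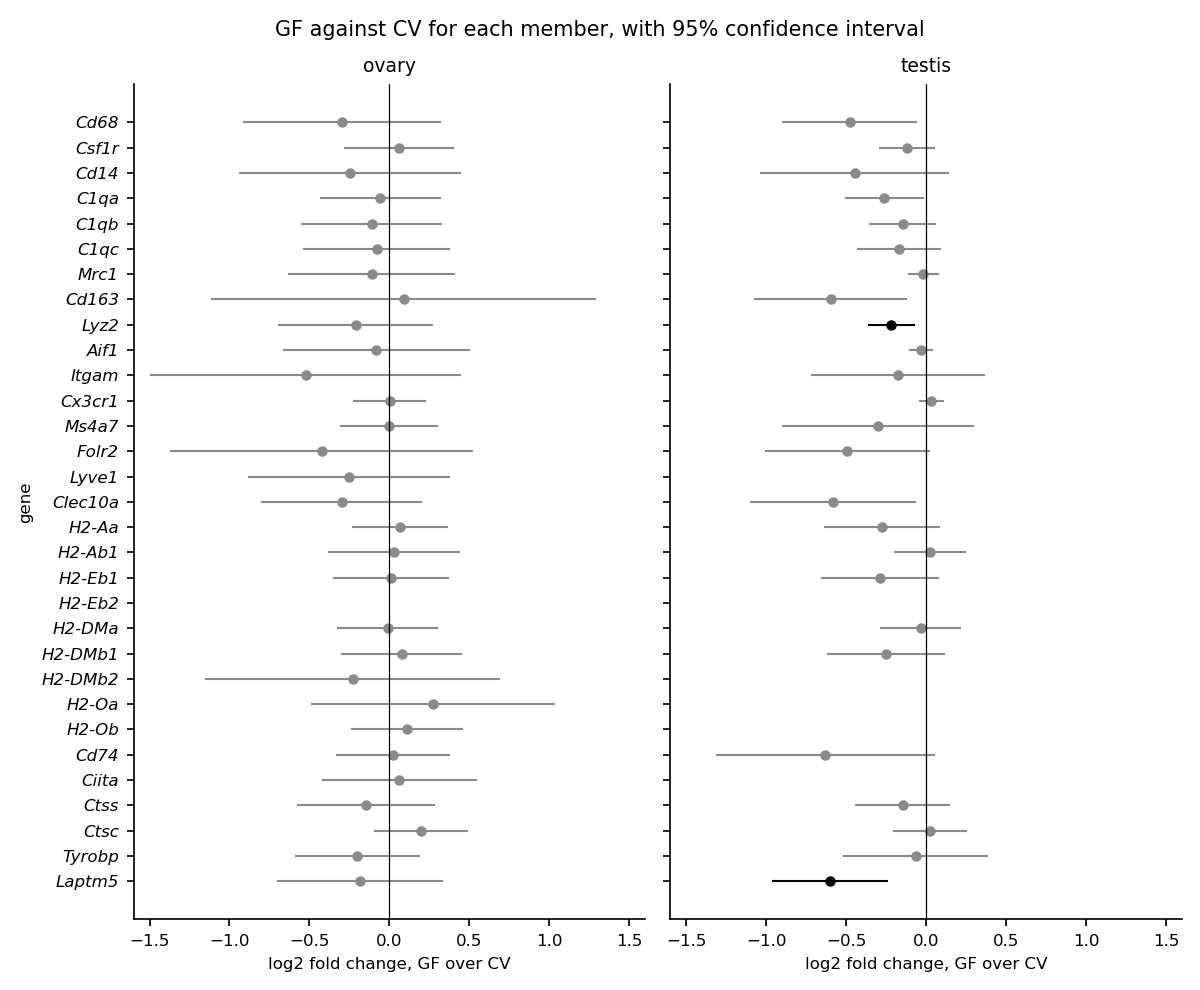
Log2 fold change, GF over CV, of each gene in the ovary (left) and the testis (right) with its 95% confidence interval; black marks genes called at an adjusted p under 0.05 by edgeR, grey those not called, and rows without a point were not tested. In the testis Laptm5 (-0.60) and Lyz2 (-0.22) are black and 22 of 25 points lie left of 0; in the ovary none is black and the intervals all cross 0.

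A test of the difference between the gonads' responses called none of the genes. The interaction, which sets the testis log2 fold change (GF over CV) against the ovary one in a fit of all 16 libraries, was tested for 30 of the 31, with 0.132% of 21977 genes called by edgeR. That fit shares 1 spread, though the common spread between libraries was 18.5% in ovaries and 4.17% in testes. In simulated counts it recovered 61.5% of 200 genes changed by 1 on the log2 scale, against 100% for the testis fit. The changed genes were drawn from well-counted ones, and every gene was given the common spread. Several members have few counts in the testis, and their changes were smaller than 1, so these shares can be too high for them. A difference can therefore have been missed. Cd74 alone had an unadjusted p under 0.05 (0.0419, against 6.93% of all genes), with a log2 difference of -0.67 (SE 0.30, adjusted p = 0.695), and DESeq2 called no member either. Laptm5 had -0.44 (SE 0.33), H2-Aa -0.36 (SE 0.25) and H2-Eb1 -0.32 (SE 0.29), all with adjusted p of 0.85 or more. Of the 30 differences 23 were negative, against 53.6% of all genes. The differences seen in the testis are therefore not shown to be particular to it.

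Between the gonads nearly every gene of the set differed, as did most genes tested. In CV mice 28 of 30 were called between testis and ovary, 26 lower and 2 higher in the testis, against 90.3% of 21977 genes called (44% lower and 46.3% higher). In GF mice 27 were called, 25 lower and 2 higher in the testis, against 89.8% of all genes (43.7% lower and 46.1% higher). The median log2 fold change, testis over ovary, was -2.56 over the 30 genes and 0.05 over all genes in CV mice, and -2.72 and 0.04 in GF mice. GF and CV libraries are separate samples here, but both contrasts share 1 fit and 1 estimate of the spread.

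Class II genes were the further apart. Over 11 of them the median was -3.71 in GF and -3.41 in CV mice, while over the 16 macrophage markers it was -2.40 in GF and -2.19 in CV mice. With one scaling over all libraries Cd74 averaged 13.7 ± 1.0 CPM in CV testes and 152 ± 22 CPM in CV ovaries (SD, n = 4 each), 11.1-fold lower in the testis, and H2-Aa 7.15 ± 1.1 CPM in CV testes and 87.8 ± 7.3 CPM in CV ovaries. Their log2 fold changes were -3.47 (SE 0.21) and -3.62 (SE 0.18). Ciita (-4.20, SE 0.34) and H2-Ob (-4.84, SE 0.42) were lower still in CV testes, on few testis counts.

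The 2 parts of the peptide loader differed in this contrast. H2-DMb1 had a log2 fold change of -0.96 (SE 0.19, adjusted p = 0.00014 by edgeR) in CV mice, while H2-DMa had one of 0.08 (SE 0.14, adjusted p = 0.558). H2-DMa shares 360 bases of exon with Brd2 on the opposite strand in the GENCODE M21 annotation, and Brd2 had 72262 counts over the testes and 27641 over the ovaries. Whether the authors counted by strand is not given in the sources used here, so the part of Brd2 in the H2-DMa counts was not tested. The same holds for Csf1r, which shares 873 bases of exon with Hmgxb3 on the opposite strand (10375 Hmgxb3 counts over the testes, against 1843 of Csf1r), and for Folr2, whose exons overlap Gm10602 on the opposite strand (343 Gm10602 counts over the testes, against 188 of Folr2). Itgam shares 3450 bases with Gm49368 on its own strand, and Ciita 329 with Dexi and H2-Oa 321 with BC051537 on the opposite strand. The part of these neighbours was not tested in any comparison.

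Among the macrophage markers Lyve1 was furthest below the ovary in CV testes, at -5.39 (SE 0.39), while Csf1r was at -1.70 (SE 0.14), C1qb at -1.86 (SE 0.18) and Folr2 at -1.08 (SE 0.37). Cd163 was at -1.10 (SE 0.48, adjusted p = 0.0391 by edgeR) in CV mice. That call was lost without CV ovary 2 (-0.71, adjusted p = 0.175), without CV ovary 3 (0.0631) and without any 1 of the CV testes (0.0504 to 0.0998), and with all libraries kept under DESeq2's size factors (-0.95, adjusted p = 0.0682) and without the filter on low counts (-1.13, 0.0677). In GF mice Cd163 was at -1.81 (SE 0.53, adjusted p = 0.00471).

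Aif1 and Cx3cr1 were higher in the testis. Aif1 averaged 423 ± 2.9 CPM in GF testes and 4.08 ± 1.4 CPM in GF ovaries (SD, n = 3 and 5), and 438 ± 24 CPM in CV testes and 4.31 ± 1.1 CPM in CV ovaries (SD, n = 4 each), 102-fold higher in CV testes. Its log2 fold change was 6.67 (SE 0.20) in CV and 6.70 (SE 0.19) in GF mice, against negative changes for 13 of the 16 markers. In the same contrast Csf1r and Adgre1 were lower in CV testes, at -1.70 and -1.69, and which cells carry the Aif1 RNA was not tested. Cx3cr1 averaged 114 ± 2.8 CPM in CV testes and 38.9 ± 2.5 CPM in CV ovaries, a log2 fold change of 1.55 (SE 0.08). In the same annotation a Cx3cr1 transcript reaches across the neighbouring genes Wdr48, Ttc21a, Gorasp1 and Csrnp1, with 0 bases of exon shared with any of these; the annotation behind the counts is not given in the sources used here.

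Mrc1 was at the same level in both gonads, with 72.5 ± 3.3 CPM in CV testes and 68.5 ± 17 CPM in CV ovaries and a log2 fold change of 0.08 (SE 0.19, adjusted p = 0.692 by edgeR). The scaling bears on this: with raw library totals in place of TMM the median of all genes moved to -0.76 in CV and -0.75 in GF mice, the genes called split into 7830 higher and 12458 lower in CV mice, against 10171 higher and 9668 lower with TMM, and into 7825 higher and 12347 lower in GF mice, against 10123 and 9603. Mrc1 and H2-DMa then fell to -0.73 and -0.72 in CV mice and to -0.64 and -0.75 in GF mice and were called lower, moving by about as much as the median gene. Aif1 and Cx3cr1 stayed higher in the testis under both scalings.

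**Figure D5:**
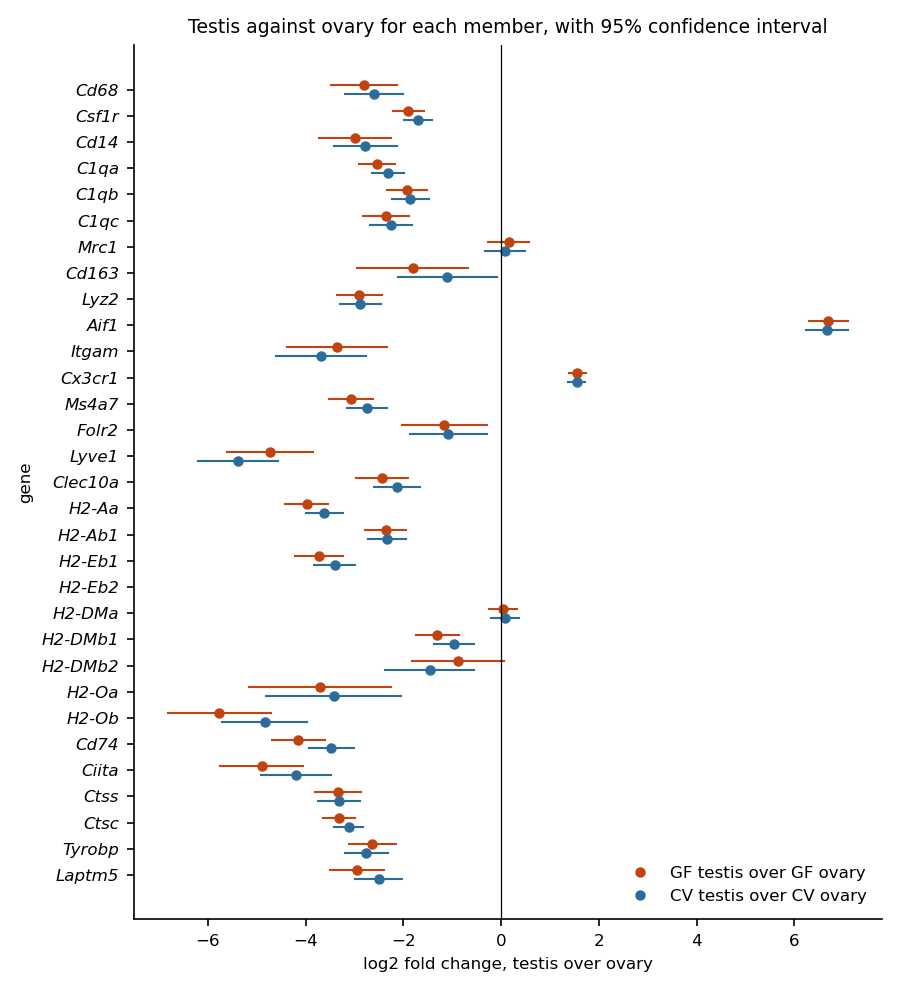
Log2 fold change, testis over ovary, of each gene tested with its 95% confidence interval, from GF libraries (orange, upper of each pair) and CV libraries (blue, lower). Aif1, at 6.70 and 6.67, and Cx3cr1, at 1.56 and 1.55, lie right of 0, Mrc1 and H2-DMa lie at 0, and the others lie left of it.

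Genes that work beside the set were read from lists. Of 25 further macrophage genes 20 were tested in the testis, 1 of which, Cd33, was called higher in GF testes (log2 fold change 0.50, SE 0.16, adjusted p = 0.0379 by edgeR) and none lower, against 8.08% of all genes called; 13 changes were negative, against 48.8%, with a median of -0.11. In the ovary 21 were tested, none was called by edgeR, against 0.177%, and 1 had an unadjusted p under 0.05, against 6.48%. There 20 changes were negative, against 48.3% of all genes, with a median of -0.21, against 0.01. The sum of this list was lowest in GF ovary 4, at 404 CPM, and highest in CV ovary 2, at 764 CPM, and the groups overlapped. How far the count of negative changes depends on single libraries was not tested for this list. Spi1, the myeloid factor PU.1, was at 1.20, 0.98 and 1.35 CPM in GF testes, against 1.11, 0.76, 0.78 and 0.39 CPM in CV testes, a log2 fold change of 0.63 (SE 0.28, adjusted p = 0.185), opposite in sign to most of the markers.

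Among 19 genes of class II control, among them the X box factors Rfx5, Rfxank and Rfxap, the Y box factors Nfya, Nfyb and Nfyc and the interferon-gamma pathway, 18 were tested in each gonad and none was called between GF and CV in either, with medians of 0.05 in the testis and 0.06 in the ovary. Rfx5 had a log2 fold change of 0.03 (SE 0.07) in the testis and -0.05 (SE 0.09) in the ovary. Among 10 lysosomal genes of antigen processing, Ctsb, a protease, fell in GF testes (-0.21, SE 0.05, adjusted p = 0.00228 by edgeR) and Lamp1, a membrane glycoprotein, rose (0.12, SE 0.03, adjusted p = 0.00198), and none was called in the ovary. Of 18 growth factors, chemokines and their receptors 12 were tested in the testis and 13 in the ovary, and none was called. Csf1 had log2 fold changes of -0.10 (SE 0.13) in the testis and 0.03 (SE 0.16) in the ovary, and Il34, the other ligand of the Csf1r product, 0.59 (SE 0.34) in the testis and -0.09 (SE 0.35) in the ovary.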

How the data were processed

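Total RNA, depleted of ribosomal RNA, was made into libraries with a stranded kit and read in pairs, per the labels' protocols. The values deposited by the authors are raw gene counts in one table. Per the submitters' processing notes STAR 2.4.0i and mm10 were used. Counting tool, annotation and strand setting: not given in the sources used here. All 16 columns matched a sample by name. Counts were tested with edgeR 4.0.16 (R 4.3.3): TMM scaling, filterByExpr, robust quasi-likelihood F tests, Benjamini-Hochberg adjustment over all genes tested, 2-sided. GF and CV were compared within each tissue; the interaction and the tissue contrasts used all 16 libraries. Positions and exon lengths are from GENCODE M21 (GRCm38), promoters from RefSeq. Every one of the 31 genes is reported; genes outside the set were named if called, up to 4 per list by smallest p, plus 10 fixed ones. H2-Q7 and the dendritic and B cell genes given by name were chosen after their values were seen. The members and lists were chosen with earlier results of these data known.

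Alternatives were DESeq2's size factors, no filter, DESeq2 1.42.0, a replicate block, a joint fit, raw totals and leaving out each library. In the ovary, libraries of the same number in GF and CV had correlations over genes of 0.391, 0.244, 0.211 and 0.382. Those of different numbers ran from -0.456 (GF 1 with CV 2) to 0.398 (GF 5 with CV 2). The labels state no pairing, so pairing by number was not established. With the replicate block 97 ovary genes were called in place of 32, and still no member, with 2 members at an unadjusted p under 0.05. No replicate pair agreed within sampling noise (chi-square per degree of freedom 2.37 to 34.3). The tests were tried on simulated counts first. The precision is that of the counts: intervals cover the spread between libraries.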

Additional observations from a re-analysis of the deposited data

Results flagged for a closer look

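Each gene tested was examined in the groups of 4 or 5 libraries for a library whose distance from the nearest other one was large for the range of its group (85 pairs of gene and group). Chance alone would mark about 1 in 20 of them, and 2 were marked. Csf1r stood at 71.1 CPM in CV ovary 2, against 52.0 to 55.0 CPM in the other 3 CV ovaries. The same library was highest in 8 of the 31 genes and had the highest sum of adipocyte genes, and the part of fat in its Csf1r value was not tested. Ms4a7, a membrane protein of tissue macrophages, stood at 1.15 CPM in CV testis 1, against 0.742 to 0.764 CPM in the other 3 CV testes. The 3 GF testes form too small a group for this rule, so the distance of GF testis 3 from the other two in Cd74 was not examined by it. No gene of the set had a GF minus CV difference called as unequal between the gonads.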

How the results depend on the processing

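In the ovary and for the interaction no gene of the set was called under any alternative run. In the testis the 2 calls became 1 without the filter (Laptm5) and 0 with DESeq2 (4 at an unadjusted p under 0.05). They became 1 with the replicate block (Laptm5) and 0 in the joint fit. With 1 library left out 0 to 2 genes were called, not always the same ones, and Lyz2 was never among them. Laptm5 was called alone without CV testis 1 and with Cd68 without CV testis 4. Without CV testis 2 only Cd163 was called, and without GF testis 3 only Cd74 and H2-Aa. Testis libraries of the same number did not deviate together (correlations -0.03, 0.05 and -0.02 over genes). Over all genes, calls in the ovary went to 95 with DESeq2, 97 with the replicate block and 93 in the joint fit; calls in the testis to 122 in the joint fit and 996 (without GF testis 2) to 2084 with 1 library left out; calls of the interaction to 112 with DESeq2 and 13 to 37 with 1 library left out. The cause was not tested.

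Of 2060 values of single genes 63 changed sign. With the replicate block these were, in the ovary, Cd163 (-0.25), Ms4a7 (0.0078) and H2-Eb1 (-0.0013), in the testis Mrc1 (0.014) and H2-Ab1 (-0.031), and H2-DMa between GF gonads (-0.025). With raw totals they were Mrc1 (-0.73 CV, -0.64 GF) and H2-DMa (-0.72 CV, -0.75 GF) between gonads. With 1 library left out the log2 fold changes in the ovary ran from -0.28 to 0.095 for Aif1, -0.16 to 0.052 for C1qa, -0.25 to 0.038 for C1qc, -0.21 to 0.49 for Cd163, -0.059 to 0.12 for Cd74, -0.079 to 0.18 for Ciita, -0.056 to 0.17 for Csf1r, -0.043 to 0.076 for Cx3cr1, -0.0091 to 0.17 for H2-Aa, -0.063 to 0.15 for H2-Ab1, -0.11 to 0.060 for H2-DMa, -0.012 to 0.19 for H2-DMb1, -0.43 to 0.032 for H2-DMb2, -0.086 to 0.12 for H2-Eb1, -0.26 to 0.074 for Mrc1 and -0.094 to 0.071 for Ms4a7. In the testis they ran from -0.057 to 0.12 for Ctsc, -0.12 to 0.11 for H2-Ab1, -0.11 to 0.070 for H2-DMa, -0.040 to 0.011 for Mrc1 and -0.19 to 0.10 for Tyrobp. Between gonads they ran from -0.018 to 0.15 (CV) and -0.028 to 0.15 (GF) for H2-DMa and from -0.026 to 0.26 (CV) for Mrc1. None of these was called with all libraries.

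H2-DMb2 between GF gonads (-0.89, adjusted p = 0.0686 by edgeR) was called lower without GF ovary 4 (-1.07, 0.0231). The 3 GF testes limit the testis comparison, and testis members under 1 CPM rest on few counts.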

Other observations

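MHC class I genes, which present peptides to CD8+ T cells and lie partly in the same region of chromosome 17, were read beside the class II genes. In the ovary 14 of 16 had a positive log2 fold change, GF over CV, with a median of 0.21, against 51.7% positive over all genes, and none was called. Nlrc5, the coactivator that does for class I what CIITA does for class II, was at 24.1, 21.3, 26.8, 16.7 and 21.4 CPM in GF ovaries, against 13.9, 18.8, 10.7 and 11.1 CPM in CV ovaries. Only GF ovary 4 lay below a CV ovary, and the log2 fold change was 0.70 (SE 0.19, unadjusted p = 0.00346, adjusted p = 0.429 by edgeR). H2-Q7, a class Ib chain from a family of near-identical copies that share reads, had 0.98 (SE 0.24, adjusted p = 0.362), without overlap between the groups.

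In the testis Nlrc5 went the other way. It was at 10.8, 11.7 and 9.49 CPM in GF testes, against 13.4, 14.1, 15.7 and 11.5 CPM in CV testes, and was called lower (log2 fold change -0.36, SE 0.09, adjusted p = 0.0128 by edgeR). The difference between the gonads, -1.07 (SE 0.24), had an unadjusted p of 0.000364 and an adjusted p of 0.119, so it was not called. Of the class I chains H2-K1 had 0.09 (SE 0.04, adjusted p = 0.219) in the testis and 0.35 (SE 0.16, adjusted p = 0.781) in the ovary, and B2m, their light chain, -0.18 (SE 0.08, adjusted p = 0.198) in the testis and 0.14 (SE 0.16, adjusted p = 0.916) in the ovary. The row for H2-Ea-ps, the alpha chain gene of I-E that C57BL/6 mice do not express, had at most 3 counts in any of the 16 libraries.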
